A study of Mus musculus with 24 samples.

Results

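The genes described here are H19, Igf2, Dlk1, Mest, Peg3, Plagl1, Cdkn1c and Grb10, 8 imprinted genes with known roles in growth, taken by symbol from a table of 36333 genes. They were listed around H19 because H19 had stood out between the drug groups and vehicle in these same mice, so the drug-minus-vehicle values below are descriptive and carry no test. Male mice were sampled at 5 dpi, and each of the 24 gave a single RNA library. TBI was induced by controlled cortical impact (CCI), a piston strike on the exposed cortex, in 20 mice, and 4 sham mice had no craniotomy. In every difference from sham below, craniotomy and impact therefore cannot be told apart. Of the mice with TBI, 5 received vehicle, 5 received PLX3397 at 290 mg/kg in chow, 5 received Anakinra at 100 mg/kg under the skin on the day of injury and the next 3 days, and 5 received PLX3397+Anakinra. PLX3397 inhibits CSF1R, the receptor on which microglia depend for survival, and Anakinra blocks the interleukin-1 receptor IL1R1. All mice were labelled C57BL6N (C57BL/6JRj in the methods) and 12 to 16 weeks old, with no genetic modification named. The tissue was labelled cortex, whereas the methods describe a larger upper quadrant around the lesion that also took in striatum, thalamus and dorsal hippocampus.

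Imprinted genes are transcribed mainly from the maternal or the paternal chromosome, according to methylation marks set in the germ line. H19, a noncoding RNA made from the maternal copy, and Igf2, a growth factor made from the paternal copy in most tissues, share enhancers and are separated by a control region bound by CTCF. In the brain, Igf2 is known as a product of the meninges, the choroid plexus and vessels, whereas Peg3 and Dlk1 are made by subsets of neurons. These libraries give the summed level of both alleles, so that which parental copy was transcribed was not measured.

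In the GENCODE annotation of GRCm38, H19 lies at chr7:142575529-142578143 on the minus strand and Igf2 at chr7:142650766-142666816 on the same strand, with 72.6 kb between them. Cdkn1c follows at chr7:143458339-143461050, 791.5 kb beyond Igf2, in the neighbouring imprinted cluster of distal chromosome 7. Peg3 is at the other end of chromosome 7, at chr7:6703892-6730431. The other members lie on other chromosomes, Mest at chr6:30723547-30748465, Plagl1 at chr10:13060504-13131694, Grb10 at chr11:11930508-12038683 and Dlk1 at chr12:109452823-109463336. H19 is annotated as a noncoding RNA and the other 7 as protein-coding. Igf2os, a gene antisense to Igf2, was listed between 0.0283 and 0.663 TPM in all 24 libraries, and it is not known here whether the counting used strand.

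3 members host microRNAs, and the mature forms are shown because these short RNAs are products of the loci that the polyA libraries did not capture. miR-675 lies inside an exon of 3 of the 7 annotated H19 transcripts, whereas miR-483 and miR-335 lie in introns of Igf2 and Mest. The sequences are from RefSeq on GRCm38.p6, 5′ to 3′, with the seed (bases 2 to 8) in capitals. All 6 seeds differed.
mmu-miR-675-5p (H19): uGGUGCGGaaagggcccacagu
mmu-miR-675-3p (H19): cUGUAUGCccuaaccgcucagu
mmu-miR-483-5p (Igf2): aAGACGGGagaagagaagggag
mmu-miR-483-3p (Igf2): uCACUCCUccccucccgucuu
mmu-miR-335-5p (Mest): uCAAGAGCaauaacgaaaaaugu
mmu-miR-335-3p (Mest): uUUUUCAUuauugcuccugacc
The rows of Mir675, Mir483 and Mir335 were listed at 0 in all 24 libraries, including the 20 TBI libraries, in which H19 itself lay between 4.61 and 224.1 TPM. Levels of the mature microRNAs cannot be read from these files.

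Plagl1 encodes ZAC1, a zinc-finger transcription factor known to bind the letters GGGGCCCC, which read the same on both strands. RefSeq start sites with 250 bases before and 50 after were at hand for 6 of the 8 members (12 windows), without H19 and Cdkn1c. The letters were present in 1 of these windows, that of Peg3, and in 1.08% of all 32851 windows. The Peg3 window is shown because it was the one that held the letters. The capitals mark the motif, which begins 201 bases upstream of the start.
Peg3 (GRCm38.p6, chr7:6730370-6730669, minus strand): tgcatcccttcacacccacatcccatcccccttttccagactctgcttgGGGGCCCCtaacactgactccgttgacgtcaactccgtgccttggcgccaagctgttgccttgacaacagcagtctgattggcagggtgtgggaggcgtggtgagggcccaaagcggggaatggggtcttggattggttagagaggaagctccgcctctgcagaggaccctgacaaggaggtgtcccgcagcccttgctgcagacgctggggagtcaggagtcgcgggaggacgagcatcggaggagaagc
A match of letters is a description of this window only, and binding was not measured.

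Levels are given in TPM, which scale reads by gene length and to 1000000 per library, so that they can be compared between genes. Read counts per library are not in the files used here, so that the depth is unknown and precision rests on the spread between mice. All 8 members exceeded a mean of 0.5 TPM and were tested together with 17267 genes in limma on log2(TPM + 1). A gene was called at a Benjamini-Hochberg adjusted p below 0.05 over all these genes. Because 1 TPM was added, differences of low genes are understated. Nothing in the labels tells whether the mice of a group shared a cage or litter. An animal number ending in B was given to every vehicle mouse and to no other, so that anything the letter stands for cannot be told apart from the vehicle group.

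H19 was nearly silent in sham brains and abundant in most injured ones. The sham mice had 0.372, 0.237, 0.602 and 0.625 TPM. Vehicle-treated TBI mice had 30.0, 4.61, 60.2, 60.4 and 6.14 TPM. The low values, 4.61 and 6.14 TPM, were those of mice J17B and J20B, and even these were above every sham mouse. PLX3397 mice had 48.5, 162.6, 144.5, 99.5 and 158.5 TPM. Anakinra mice had 113.9, 97.4, 58.8, 123.2 and 118.9 TPM. PLX3397+Anakinra mice had 224.1, 125.0, 150.2, 109.3 and 96.8 TPM. The 3 drug groups overlapped with each other widely, and the combination group was the one whose lowest mouse was above the highest vehicle mouse (60.4 TPM).

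**Figure D1:**
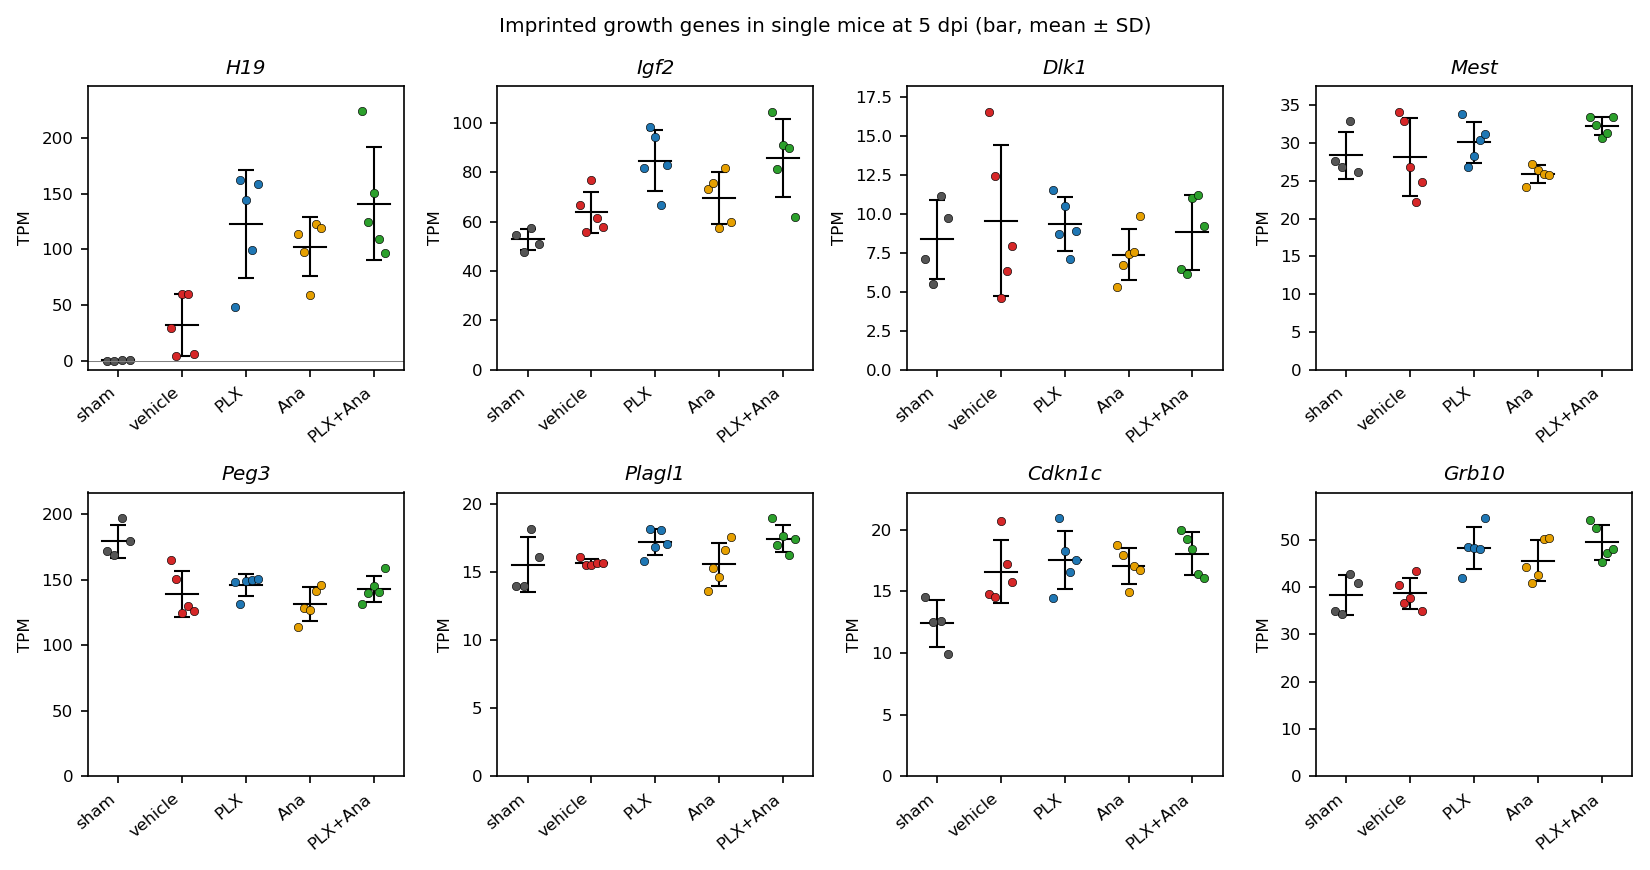
TPM of each gene (y axis) in every mouse, by group (x axis: sham, TBI vehicle, TBI PLX3397, TBI Anakinra, TBI PLX3397+Anakinra); points are mice, lines and bars the mean ± SD, n = 4 sham and 5 in each TBI group. H19 lies below 1 TPM in every sham mouse and between 4.61 and 224.1 TPM after TBI, whereas Peg3 is highest in sham.

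Against sham, H19 was higher in each TBI group. Its mean was 32.2 ± 27.5 TPM (SD, n = 5) in vehicle and 0.459 ± 0.187 TPM (SD, n = 4) in sham, a difference of 3.89 on the log2(TPM + 1) scale (SE 0.53, adjusted p = 9.1e-07, limma). The ratio of these means was 70.2, and the difference was 5.23 with a pseudocount of 0.1. In the drug groups the difference from sham was 6.29 for PLX3397 (adjusted p = 7.1e-10, limma), 6.11 for Anakinra (5.9e-10) and 6.55 for PLX3397+Anakinra (5.5e-10). Leaving out any 1 mouse kept the vehicle difference between 3.52 and 4.38. The 4 comparisons use the same 4 sham mice and are therefore not independent of each other. H19 was chosen for its high values in the drug groups against vehicle. The p-values of the drug groups against sham are therefore not independent of that choice.

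Among the drug groups, no difference of H19 passed the test. PLX3397+Anakinra minus PLX3397 was 0.26 on the log2 scale (95% interval -0.77 to 1.29, adjusted p = 0.968, limma). PLX3397+Anakinra minus Anakinra was 0.44 (-0.59 to 1.47, adjusted p = 0.612, limma), and PLX3397 minus Anakinra was 0.18 (-0.85 to 1.21, adjusted p = 0.879, limma). These intervals are wide, and a p above the threshold does not show equal levels.

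Relative to vehicle, the mean H19 level was 3.81 times as high with PLX3397, 3.18 times with Anakinra and 4.37 times with PLX3397+Anakinra. These are the contrasts that led to the choice of the gene. The study's criteria were an unadjusted p below 0.05, a ratio of means above 2 and a difference above 4 TPM. They were applied here and below with the p of limma in place of the authors' own. By them H19 counted as higher in all 3 contrasts, where 0.0869%, 0.162% and 0.0985% of all genes did. By adjusted p, H19 was called for PLX3397 and the combination but not for Anakinra alone, with log2 differences of 2.40, 2.66 and 2.22. The Anakinra comparison called 0.116% of genes in all, and a member was called in it when vehicle mouse J18B or J19B was left out. Nothing is read from these calls.

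Igf2, the growth factor beside H19, was already abundant in sham brains and rose above sham in the 3 drug groups. Sham mice had 54.8, 47.8, 57.5 and 51.0 TPM, and vehicle mice had 66.6, 56.0, 76.97, 61.5 and 57.9 TPM, so that these groups overlapped. PLX3397 mice had 81.6, 98.3, 94.1, 66.6 and 83.2 TPM and PLX3397+Anakinra mice 104.5, 81.4, 91.0, 89.9 and 62.0 TPM, in both groups above every sham mouse. Anakinra mice had 73.2, 75.8, 57.4, 81.9 and 59.8 TPM. The difference from sham was 0.66 (SE 0.13, adjusted p = 0.000163, limma) for PLX3397, 0.67 (adjusted p = 0.000181) for PLX3397+Anakinra and 0.38 (adjusted p = 0.0147) for Anakinra. For vehicle it was 0.26 (95% interval -0.0033 to 0.53, adjusted p = 0.0889, limma), which passed the threshold only with the 2 compared groups in the fit (adjusted p = 0.0229). The Anakinra call was lost without sham mouse J08 (adjusted p = 0.0505). Between drug groups Igf2 was not called, although PLX3397+Anakinra minus Anakinra (0.29, adjusted p = 0.118) passed without combination mouse J17 (adjusted p = 0.0243). The means were 1.33 times vehicle with PLX3397, 1.09 times with Anakinra and 1.34 times with PLX3397+Anakinra, given without a test.

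The ratio of H19 to Igf2 was higher in every TBI mouse than in every sham mouse. H19 was between 0.00496 and 0.0123 times Igf2 in sham mice, and between 0.0823 and 0.981 times in vehicle mice. It was 0.594 to 1.91 times Igf2 with PLX3397, 1.03 to 1.99 times with Anakinra and 1.21 to 2.14 times with PLX3397+Anakinra. In 14 of the 15 drug-treated mice H19 was thus above Igf2, and in none of the 5 vehicle or 4 sham mice. Between drug and vehicle mice, this restates the contrast behind the choice of H19 and is a description only.

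Cdkn1c, which encodes the cell cycle inhibitor p57 in the adjoining cluster, was higher in all 4 TBI groups than in sham. The sham mice ranged from 9.95 to 14.5 TPM around a median of 12.6 TPM. Vehicle mice had 14.8, 14.5, 20.7, 17.2 and 15.8 TPM, with the lowest just under the highest sham mouse. The ranges were 14.4 to 20.9 TPM with PLX3397, 14.9 to 18.8 TPM with Anakinra and 16.1 to 20.01 TPM with PLX3397+Anakinra, and the last 2 groups did not overlap with sham. The log2 differences were 0.39 (SE 0.11, adjusted p = 0.00309, limma) for vehicle, 0.47 (0.000819) for PLX3397, 0.44 (0.00122) for Anakinra and 0.51 (0.00044) for the combination. All 4 calls held when any single mouse was left out. Between drug groups Cdkn1c differed by 0.03 to 0.07 and was not called, with 95% intervals between -0.18 and 0.28 on the log2 scale.

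Grb10, an adaptor protein that restrains insulin and IGF signalling and is made from the maternal copy in most tissues and from the paternal copy in neurons, was not called in vehicle mice. Sham mice lay between 34.3 and 42.7 TPM and vehicle mice between 34.9 and 43.4 TPM, a difference of 0.02 (95% interval -0.15 to 0.18, adjusted p = 0.881, limma). Under drugs it was higher than in sham. PLX3397 mice had 41.9 to 54.5 TPM (median 48.2), Anakinra mice 40.8 to 50.3 TPM (median 44.2), and PLX3397+Anakinra mice 45.4 to 54.0 TPM (median 48.1), the last without overlap with sham. The differences from sham were 0.33 (adjusted p = 0.00178, limma), 0.25 (0.0119) and 0.37 (0.000827), and the Anakinra call was lost without sham mouse J08 (adjusted p = 0.0576). Against vehicle, described without a test, the means were 1.25, 1.18 and 1.28 times as high.

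Peg3, a zinc-finger protein gene made from the paternal copy and strong in neurons, was the member that fell. Sham mice had 171.6, 168.9, 196.7 and 179.4 TPM. Vehicle mice had 164.6, 150.5, 124.6, 130.0 and 125.7 TPM, all below the lowest sham mouse. The other groups lay between 131.1 and 150.8 TPM (PLX3397), 113.8 and 146.1 TPM (Anakinra) and 131.3 and 158.6 TPM (combination), again all below sham. Peg3 decreased by 0.37 on the log2 scale in vehicle (SE 0.08, adjusted p = 0.000313, limma), by 0.30 with PLX3397 (adjusted p = 0.00336), by 0.45 with Anakinra (adjusted p = 3.3e-05) and by 0.32 with the combination (adjusted p = 0.00195). Leaving out any single mouse lost none of these calls. The summed neuron markers moved the same way, from 7513 to 7912 TPM in sham to 4401 to 6052 TPM over all TBI mice, and their part in the Peg3 difference was not tested. Within groups, the relation of Peg3 to these markers did not pass (r = 0.365, rho = 0.368, permutation p = 0.147 and 0.136, adjusted p = 0.259 and 0.271, r = 0.27 without the 2 mice farthest from the median of Peg3). In bulk tissue, fewer cells of a type and less RNA per cell cannot be told apart.

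Mest, a hydrolase family gene made from the paternal copy, was not called against sham in any group but was called between drug groups. PLX3397+Anakinra mice had 33.5, 32.4, 30.7, 31.3 and 33.4 TPM and Anakinra mice 24.2, 27.3, 26.4, 25.9 and 25.7 TPM, without overlap. The difference was 0.31 (SE 0.09, adjusted p = 0.0214, limma). It was lost without Anakinra mouse J05 (adjusted p = 0.0636) or without combination mouse J17 (adjusted p = 0.054). Sham mice had 27.6, 26.8, 33.0 and 26.2 TPM, and vehicle mice spread from 22.2 to 34.1 TPM, around both drug groups. The combination minus sham was 0.18 (adjusted p = 0.124), and was called with only the compared groups in the fit or without sham mouse J15 (adjusted p = 0.0421 without it).

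Plagl1, the gene of ZAC1, kept to a narrow range of 13.6 to 18.9 TPM over all 24 mice. Group means lay between 15.5 and 17.4 TPM, and in the 7 tested comparisons it was not called. The difference from sham was 0.16 for the combination (adjusted p = 0.0746) and 0.14 for PLX3397 (adjusted p = 0.108, limma), and both were called without sham mouse J15 (adjusted p = 0.0104 and 0.0155), the highest of the sham mice at 18.1 TPM. Median-ratio rescaling alone also gave a call for the combination.

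Dlk1, which encodes a transmembrane protein related to Notch ligands, varied more between mice of a group than between groups. Vehicle mice had 16.5, 12.4, 4.63, 6.31 and 7.95 TPM, so that this group held both the highest and the lowest mouse of all 24. Sham mice had 7.10, 5.52, 11.1 and 9.75 TPM, and the drug groups ranged from 5.32 to 11.5 TPM. The differences from sham were between -0.14 and 0.17 with SE 0.25, and the intervals reached from -0.66 to 0.69 on the log2 scale. At this spread a difference of that size could not be detected.

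**Figure D2:**
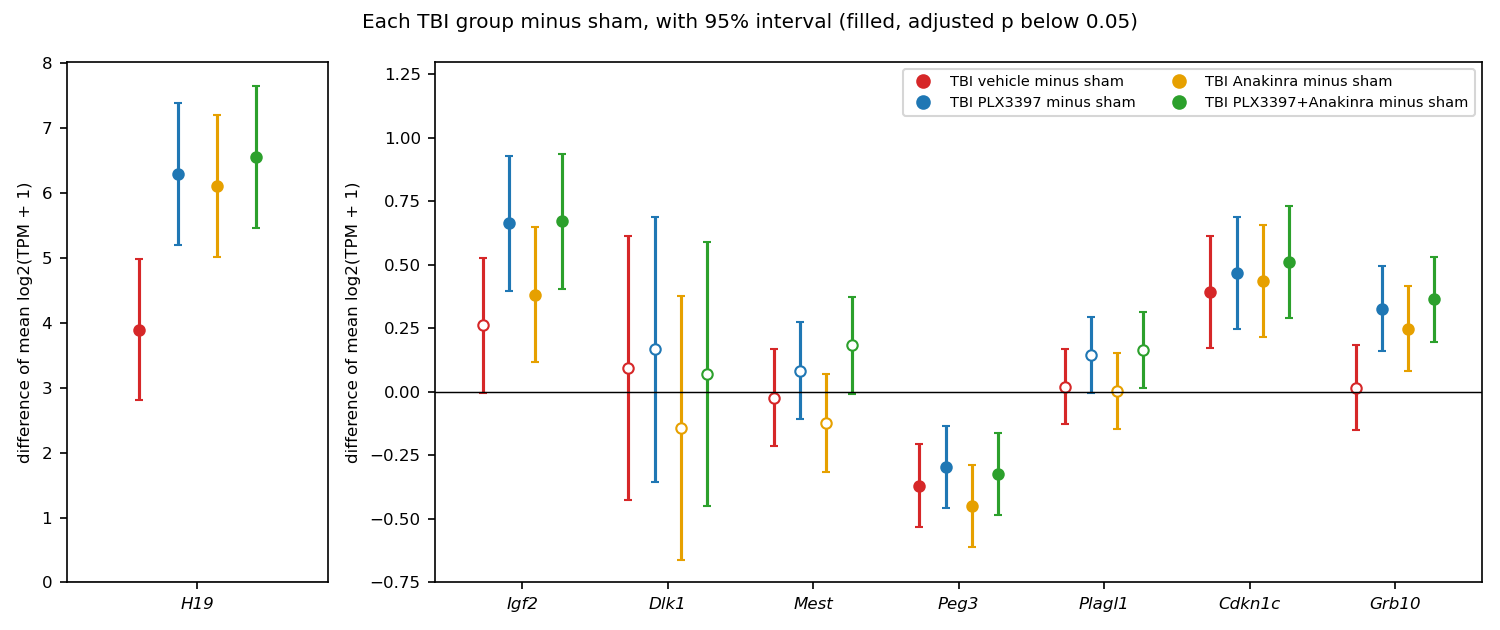
Difference of mean log2(TPM + 1) of each TBI group minus sham (y axis) for each gene (x axis), with 95% intervals from limma; filled points had an adjusted p below 0.05. H19 has its own axis, on which its points lie between 3.89 and 6.55, and Peg3 is the gene with all 4 points below 0.

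Counted over the members, 2 of 8 rose and 1 fell in vehicle minus sham, where 54.3% of all genes were called. In each of the drug groups 4 of 8 rose (H19, Igf2, Cdkn1c and Grb10) and 1 fell (Peg3), beside 45.2% of all genes for PLX3397, 54.4% for Anakinra and 38.8% for PLX3397+Anakinra. Split by direction, 26.6% of all genes rose and 27.7% fell for vehicle, 22.7% and 22.5% for PLX3397, 25.1% and 29.2% for Anakinra, and 20.7% and 18.1% for the combination. A count over 8 genes is too coarse to be read against these shares. The members whose mice did not overlap with sham numbered 2, 3, 3 and 5 in the same order, beside 42.7%, 36.3%, 44.9% and 30.9% of all genes. By the study's criteria H19 alone was higher than in sham in each group, as were 5.11%, 3.58%, 5.24% and 2.84% of all genes. The median difference of the 8 was 0.06 for vehicle, 0.25 for PLX3397, 0.13 for Anakinra and 0.27 for the combination, against medians between -0.04 and -0.01 over all genes tested.
In PLX3397+Anakinra minus Anakinra, 1 of 8 was called (Mest, higher and without overlap) beside 12.8% of all genes, of which 4.67% were higher, while 11.2% did not overlap. None of the members met the study's criteria there, as 1.57% of all genes did. No member was called for PLX3397 minus Anakinra (6.69% of all genes) or PLX3397+Anakinra minus PLX3397 (0.151% of all genes) in limma, with 2 and 0 members at an unadjusted p below 0.05. Against vehicle, 3 members were called for PLX3397 and 3 for the combination (H19, Igf2 and Grb10), all higher, beside 9.89% and 17.5% of all genes (3.23% and 7.88% higher), and 3 members did not overlap between the combination and vehicle, as did 10.7% of all genes. Nothing is read from these counts.

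The other imprinted genes went both ways. Of 58 genes on a list of mouse imprinted genes, 55 were tested. In vehicle minus sham 11 rose and 18 fell, in PLX3397 minus sham 13 rose and 15 fell, in Anakinra minus sham 12 rose and 22 fell, and in PLX3397+Anakinra minus sham 13 rose and 16 fell. In the same order, 26.6%, 22.7%, 25.1% and 20.7% of all genes rose, and 27.7%, 22.5%, 29.2% and 18.1% fell. The list was not tested against these shares. The medians of the 55 genes were -0.05, -0.005, -0.14 and -0.04 on the log2 scale, so that the middle of the list stayed near 0. The largest rise in every TBI group was that of Dcn, which encodes the matrix proteoglycan decorin, from 18.5 TPM in sham to 40.8, 66.0, 56.5 and 51.3 TPM in vehicle, PLX3397, Anakinra and the combination (log2 1.08, 1.75, 1.56 and 1.39). Ampd3, an AMP deaminase gene, rose from 16.99 to 29.1 TPM in vehicle mice (log2 0.74, adjusted p = 1.7e-09, limma).
Kcnk9, a potassium channel gene imprinted in brain, fell in all 4 groups, from 41.5 TPM in sham to between 26.4 and 30.1 TPM. Peg13, a noncoding RNA gene of the same domain, fell from 307 TPM to between 193 and 229 TPM. Rasgrf1, a guanine nucleotide exchange factor gene of neurons, fell from 195 to 123 TPM in vehicle (log2 -0.66, adjusted p = 3.7e-11, limma), and Begain, a postsynaptic gene beside Dlk1, fell from 108 to 70.3 TPM with Anakinra (log2 -0.60).
Between drug groups, 6 of the 55 imprinted genes were higher and 1 was lower in the combination than in Anakinra. Of all genes, 12.8% were called there and 4.67% were higher. The higher ones included Begain (log2 0.21, adjusted p = 0.02), Peg13 (0.18, adjusted p = 0.022) and Snurf (0.16, adjusted p = 0.014, limma). The lower one was Tspan32, a tetraspanin gene of blood cells at 0.879 and 0.376 TPM. The count of called imprinted genes fell to 2 or 3 when Anakinra mouse J05 or J21 or combination mouse J09, J10 or J17 was left out. PLX3397 minus Anakinra called 1 (Zrsr1, 0.16, adjusted p = 0.029, limma), beside 6.69% of all genes. The combination minus PLX3397 called 0 of 55 in limma, with 3 at an unadjusted p below 0.05, beside 0.151% of all genes called.

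**Figure D3:**
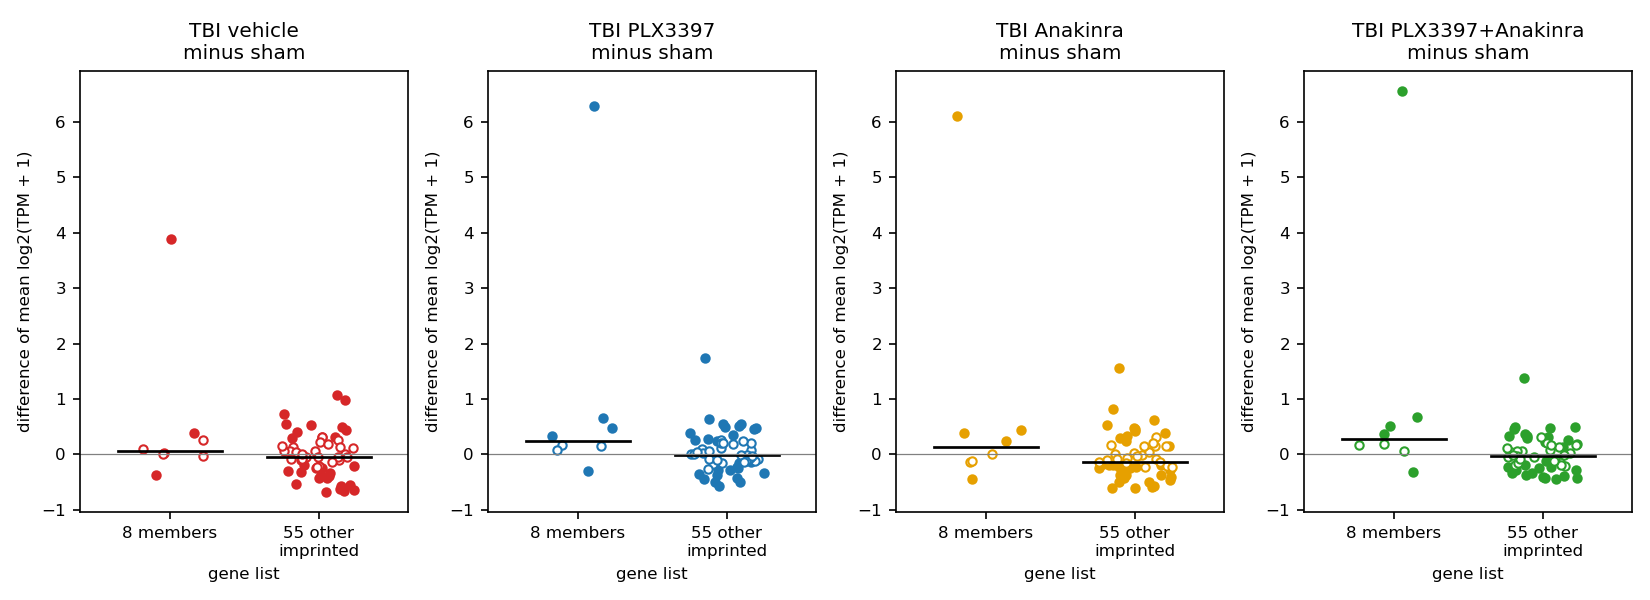
Difference of mean log2(TPM + 1) from sham (y axis) for the 8 members and the 55 other imprinted genes (x axis) in each TBI group; a point is a gene, filled when called, and bars are medians. H19 is the point above 3 in every panel, and the medians of the other imprinted genes lie between -0.14 and -0.005.

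On distal chromosome 7, a list of 28 genes around H19 and Igf2, which includes H19, Igf2 and Cdkn1c, had 22 tested genes. Of these, 10 rose and 4 fell in vehicle minus sham and in PLX3397 minus sham, 11 rose and 4 fell for Anakinra, and 11 rose and 3 fell for the combination. Over all genes, 26.6%, 22.7%, 25.1% and 20.7% rose in vehicle, PLX3397, Anakinra and the combination, and 27.7%, 22.5%, 29.2% and 18.1% fell. The stretch was not tested against these shares. After H19 the largest rises were in Ctsd, which encodes the lysosomal protease cathepsin D (533 TPM in sham and 5420 TPM in vehicle), and in Lsp1, a leukocyte gene (3.52 and 12.8 TPM). Dusp8, a phosphatase gene, and Tollip, a regulator of interleukin-1 receptor signalling, fell in each group, Tollip from 143 TPM to between 113 and 123 TPM. Ctsd was lower in PLX3397+Anakinra (2381 TPM) than in Anakinra mice (5288 TPM, log2 -1.16, adjusted p = 1.7e-08, limma), whereas H19, in the same stretch, was not called there.

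Genes of the wider IGF system went both ways. Of 29 listed genes of IGF ligands, receptors, binding proteins and regulators of Igf2, 27 were tested. In vehicle minus sham 12 rose and 3 fell, for PLX3397 11 and 4, for Anakinra 13 and 5, and for PLX3397+Anakinra 11 and 2, while 12, 12, 9 and 14 were not called. Their medians were 0.16, 0.08, 0.21 and 0.06 on the log2 scale. Of all genes tested 26.6%, 22.7%, 25.1% and 20.7% rose in the same comparisons, and 27.7%, 22.5%, 29.2% and 18.1% fell. Igfbp2, a secreted IGF-binding protein, rose from 81.1 TPM in sham to 340.5 TPM in vehicle and 292.9 TPM in the combination (log2 2.03 and 1.84). Igfbp7, a binding protein of vessels, rose from 63.0 to 146.1 TPM in vehicle and to 186.7 TPM with PLX3397. Igf1, the sister growth factor, rose from 3.52 to 17.3 TPM in vehicle (log2 2.00, adjusted p = 2.8e-12, limma). It was lower in the combination (9.81 TPM) than with Anakinra (16.9 TPM, log2 -0.73, adjusted p = 0.000121, limma), without overlap, and also lower with PLX3397 (12.1 TPM, log2 -0.45, adjusted p = 0.022, limma). Igfbp6, a binding protein with preference for IGF2, fell from 68.9 TPM in sham to 44.9 TPM in vehicle, 53.9 TPM with PLX3397, 57.4 TPM with Anakinra and 59.1 TPM with the combination.

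H19 moved from mouse to mouse with the markers of fibroblasts and meninges. The 18 markers of this list, led by the collagen genes Col1a1, Col1a2 and Col3a1, summed to 115 to 131 TPM in sham, 177 to 826 TPM in vehicle, 572 to 1295 TPM with PLX3397, 906 to 1701 TPM with Anakinra and 812 to 1377 TPM with PLX3397+Anakinra. None of them was at 0 throughout a group. The vehicle mice with low H19, J17B and J20B, also had the lowest marker sums after TBI, 177 and 209 TPM. The sum after TBI leans on the 3 collagen genes, with means of 121.9, 143.1 and 102.5 TPM in vehicle and 333.7, 360.9 and 271.2 TPM in Anakinra mice. Against sham 14 of the 18 markers rose and 1 fell in vehicle and in Anakinra mice, beside 26.6% and 25.1% of all genes that rose. In PLX3397 and in combination mice 13 rose and 0 fell, beside 22.7% and 20.7% of all genes that rose. Per 100 TPM of these markers, H19 stood at 0.206 to 0.486 TPM in sham and at 2.61 to 7.50 TPM in vehicle. It stood at 8.48 to 13.5 TPM with PLX3397, 6.28 to 10.7 TPM with Anakinra and 11.9 to 16.3 TPM with the combination. H19 per marker was thus above every vehicle mouse in all PLX3397 and combination mice, as a description of a drug contrast behind the choice of the gene. The part of these cells in the H19 level was not tested.

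Markers of pericytes and smooth muscle summed to 246 to 260 TPM in sham, 257 to 355 TPM in vehicle, 312.0 to 431.0 TPM with PLX3397, 336 to 391 TPM with Anakinra and 316 to 406 TPM with the combination. The vehicle mice J17B (257 TPM) and J20B (281.5 TPM) were again the lowest after TBI. They were also lowest after TBI in bone and cartilage markers, at 25.5 and 23.7 TPM, against 26.0 to 28.6 TPM in sham and 37.4 to 56.1 TPM in the combination. Endothelial markers summed to 302 to 304.5 TPM in sham and 338.7 to 407 TPM after TBI. The part of these cells in the H19 level was not tested either. Choroid plexus markers, led by Ttr, summed to 2706 to 5060 TPM over all mice with overlapping groups, and no more than 2 of 12 were called in any comparison with sham. Skeletal muscle markers summed to at most 22.4 TPM in any mouse, with the highest group median in sham (20.3 TPM). Microglia and macrophage markers summed to 531 to 573 TPM in sham, 3197 to 4466 TPM in vehicle and 3560 to 3988 TPM with Anakinra, but 1498 to 2334 TPM with PLX3397 and 1277 to 1663 TPM with the combination. H19 was above every sham mouse in each of the TBI groups. Within groups, its relation to the microglia and macrophage markers did not pass (r = 0.571, rho = 0.559, permutation p = 0.016 and 0.0261, adjusted p = 0.0708 and 0.0922). The part of microglia in the H19 level was not tested.

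**Figure D4:**
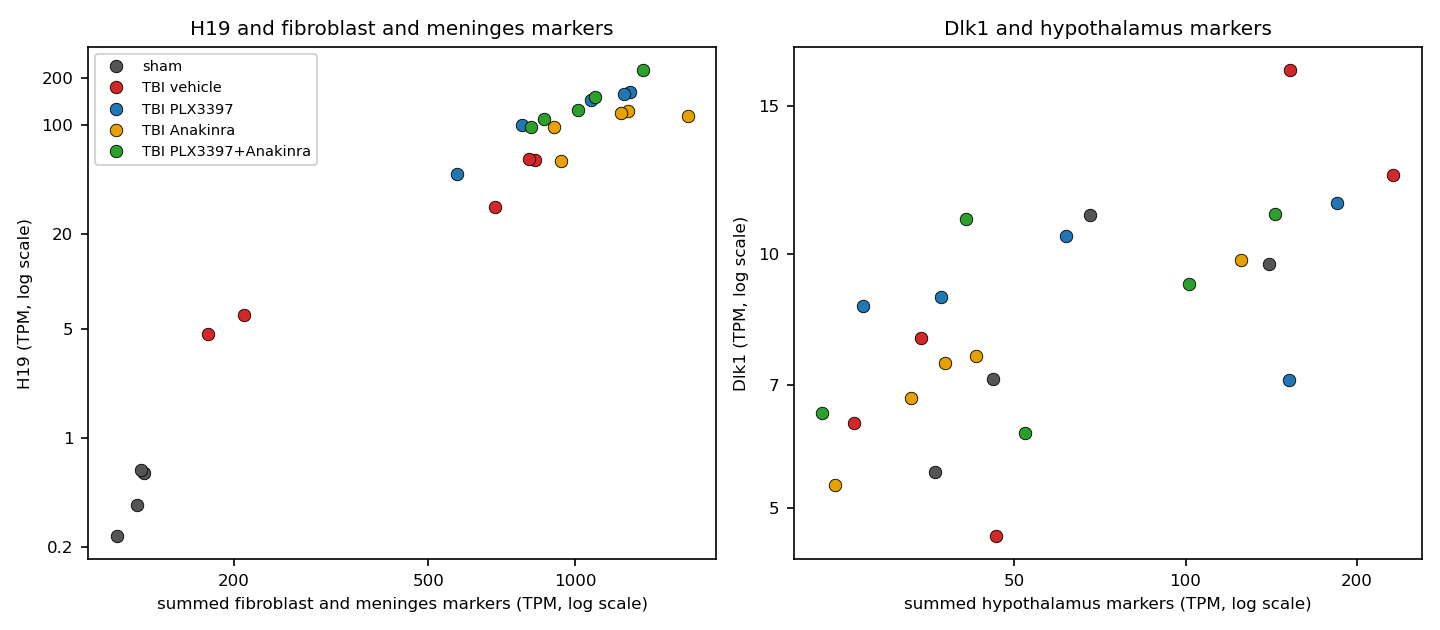
Left, H19 against the summed fibroblast and meninges markers; right, Dlk1 against the summed hypothalamus markers (all axes TPM on a log scale); each point is a mouse, coloured by group. Left, sham mice lie at 115 to 131 TPM of markers and below 1 TPM of H19, and 2 vehicle mice lie between them and the other TBI mice.

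Within groups, the relation was tested on deviations of log2(TPM + 1) from the group mean over all 24 mice, with mice permuted within groups. Of 120 relations of the 8 members with the sums of 15 marker lists, 12 passed by Pearson's r at a Benjamini-Hochberg adjusted p below 0.05 (47 at an unadjusted p below 0.05), and 10 of them also by Spearman's rho. TPM share a common total per library, so that one abundant group of genes can lower the others. The part of this in the relations was not tested. The strongest was that of H19 with fibroblast and meninges markers (Pearson's r = 0.962, Spearman's rho = 0.945, permutation p = 1e-05 for both, the smallest these permutations can give, adjusted p = 0.0012 for both). Without the 2 mice farthest from the median of H19 it was r = 0.871. H19 also followed pericyte and smooth muscle markers (r = 0.767, rho = 0.702, permutation p = 0.00117 and 0.00331, adjusted p = 0.0201 and 0.0362, r = 0.646 without the 2 farthest mice) and ran against neuron markers (r = -0.756, rho = -0.716, permutation p = 0.00072 and 0.00191, adjusted p = 0.019 and 0.0327, r = -0.891). With endothelial markers it passed by Pearson's r only (r = 0.662, rho = 0.589, permutation p = 0.00241 and 0.0179, adjusted p = 0.0361 and 0.085, r = 0.511), and with bone and cartilage markers by Spearman's rho only (r = 0.427, rho = 0.64, permutation p = 0.011 and 0.00365, adjusted p = 0.0577 and 0.0365, r = 0.369).
Grb10 followed pericyte and smooth muscle markers too (r = 0.642, rho = 0.695, permutation p = 0.00087 and 0.00024, adjusted p = 0.019 and 0.0144, r = 0.537) and fibroblast and meninges markers (r = 0.556, rho = 0.617, permutation p = 0.00382 and 0.00252, adjusted p = 0.0478 and 0.0348, r = 0.465). It ran against neuron markers (r = -0.603, rho = -0.649, permutation p = 0.00478 and 0.00261, adjusted p = 0.0478 and 0.0348, r = -0.51), as did Cdkn1c (r = -0.694, rho = -0.679, permutation p = 0.0008 and 0.00163, adjusted p = 0.019 and 0.0326, r = -0.738). Peg3 ran against microglia and macrophage markers by Pearson's r only (r = -0.577, rho = -0.589, permutation p = 0.00462 and 0.00734, adjusted p = 0.0478 and 0.0537, r = -0.624). Dlk1 ran against proliferation markers by Spearman's rho only (r = -0.642, rho = -0.656, permutation p = 0.00918 and 0.00332, adjusted p = 0.0575 and 0.0362, r = -0.608). Igf2 passed with none of the 15 lists. Its relation to fibroblast and meninges markers was r = 0.52 (rho = 0.588, permutation p = 0.00645 and 0.00627, adjusted p = 0.0575 and 0.0537, r = 0.541 without the 2 farthest mice), and to choroid plexus markers r = 0.442 (rho = 0.437, permutation p = 0.0597 and 0.0658, adjusted p = 0.138 and 0.165, r = 0.287).

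Dlk1 and Peg3 went with the sum of a list of hypothalamus markers, and the methods do not name this region in the quadrant. This list, with Pomc, Agrp and Oxt at its head, summed to 26.2 to 231.7 TPM in vehicle, 27.2 to 184.4 TPM with PLX3397, 24.2 to 124.9 TPM with Anakinra, 23.0 to 143.5 TPM with the combination and 36.4 to 139.9 TPM in sham, so that every group held high and low mice. Agrp was at 0 in 1 or 2 mice of each group. Group means of these first 3 genes were low, 3.04 to 4.18 TPM for Pomc, 0.141 to 0.218 TPM for Agrp and 0.476 to 6.23 TPM for Oxt. The high sums thus came mostly from other genes of the list, and whether hypothalamus was in the samples cannot be read from them. The vehicle mice J01B and J17B, highest in Dlk1, had the sums of 153 and 231.7 TPM. Dlk1 related to the sum with r = 0.648 (rho = 0.704, permutation p = 0.00415 and 0.00105, adjusted p = 0.0478 and 0.0302, r = 0.654 without the 2 farthest mice) and Peg3 with r = 0.699 (rho = 0.742, permutation p = 0.00095 and 0.00039, adjusted p = 0.019 and 0.0156, r = 0.674). Cdkn1c ran against it (r = -0.714, rho = -0.685, permutation p = 0.0005 and 0.00126, adjusted p = 0.019 and 0.0302, r = -0.732). Relations of Dlk1 to striatum markers (r = 0.611, rho = 0.56, adjusted permutation p = 0.0575 and 0.085) and to thalamus markers (r = 0.516, rho = 0.579, adjusted permutation p = 0.0575 and 0.0653) did not pass. Nor did that of Peg3 to striatum markers (r = 0.577, rho = 0.557, adjusted permutation p = 0.0708 and 0.0903), although r was of like size. What part the extent of the sampled tissue had in these levels was not tested.

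Between the members themselves, 10 of 28 pairs were related within groups by Pearson's r at an adjusted permutation p below 0.05, 9 of them also by Spearman's rho. H19 followed Igf2 (r = 0.53, rho = 0.637, permutation p = 0.00437 and 0.00206, adjusted p = 0.0175 and 0.0192, r = 0.533 without the 2 farthest mice), Cdkn1c (r = 0.586) and Grb10 (r = 0.575). Igf2 and Cdkn1c were related with r = 0.595. A second group held Dlk1, Peg3 and Mest. Dlk1 and Peg3 were related with r = 0.769 (rho = 0.758, permutation p = 0.00026 and 0.00032, adjusted p = 0.00728 and 0.0063, r = 0.674 without the 2 farthest mice), and Mest and Peg3 with r = 0.667. Cdkn1c ran against Dlk1 (r = -0.625) and against Peg3 (r = -0.546). Plagl1 and Grb10 were related with r = 0.666, and H19 and Plagl1 passed by Pearson's r only (r = 0.262, adjusted p = 0.044, against an adjusted p = 0.0527 for rho = 0.405). For the pairs given by r alone both measures passed (adjusted permutation p of at most 0.0376 for r and 0.0279 for rho), and r kept its sign without the 2 farthest mice, where it was weakest for Peg3 and Cdkn1c (-0.486). Instead of 10 pairs of members, 4 passed without vehicle mouse J17B.

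**Figure D5:**
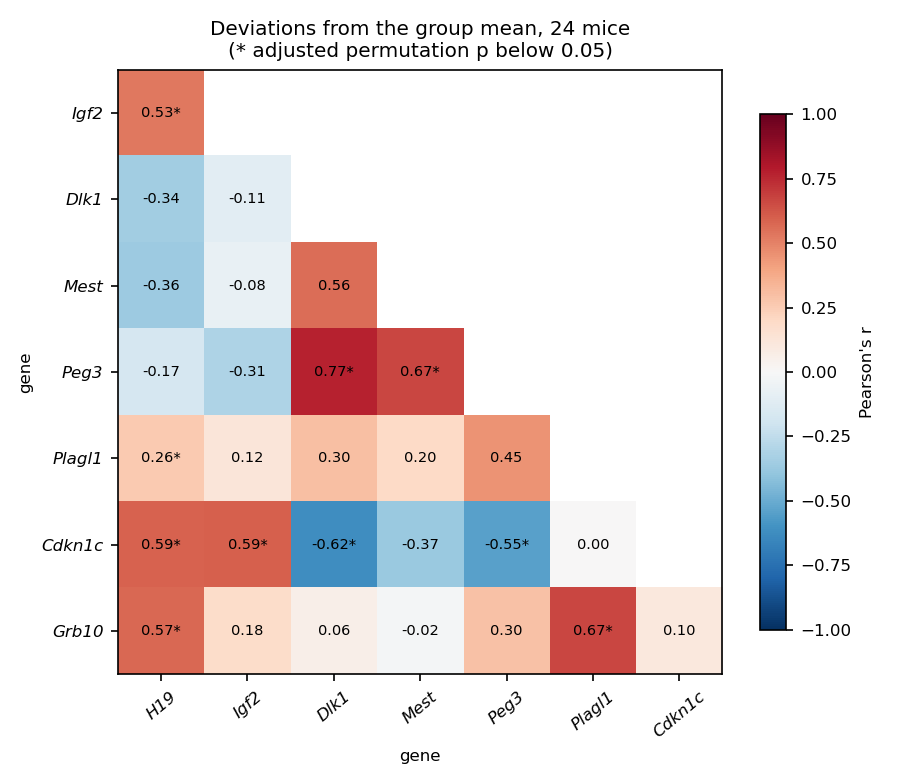
Pearson's r between the deviations of log2(TPM + 1) from the group mean for each pair of members (both axes: genes) over 24 mice; the colour scale runs from -1 to 1, and asterisks mark adjusted permutation p below 0.05. H19, Igf2 and Cdkn1c form one positive block and Dlk1, Mest and Peg3 another, in which Dlk1 and Mest (r = 0.561) did not pass.

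Over the 20 TBI mice, with group means left in, the genes most like H19 among all those tested were Mgp (r = 0.974), Mfap4 (0.973), Postn (0.972), Col12a1 (0.966) and Tbx15 (0.962). Mgp, Mfap4, Postn and Col12a1 encode proteins of the extracellular matrix, and Tbx15 a transcription factor of the T-box family; Postn is also on the fibroblast list. In sham, where H19 was at 0.237 to 0.625 TPM, Mgp was at 81.6 to 111.5 TPM, Mfap4 at 2.26 to 3.69 TPM, Postn at 2.87 to 4.75 TPM, Col12a1 at 4.08 to 5.08 TPM and Tbx15 at 0.618 to 1.09 TPM, the last overlapping with H19. For Igf2 the most alike were Fmod (r = 0.858), Endou (0.809), Id1 (0.801), Cttn (0.801) and Boc (0.781), and for Dlk1 they were Peg10 (0.901), Syn3 (0.881), Lhx8 (0.873), Pnmal2 (0.871) and Ngfr (0.869). Peg10, like Dlk1, is an imprinted gene made from the paternal copy, at 14.9 to 41.3 TPM in these mice. These values describe 20 mice of 4 groups and carry no test, since each gene was picked from all those tested for its likeness.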

How the data were processed

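Brain RNA of 24 mice was sequenced as polyA libraries by the authors, who mapped reads to mm10 (GRCm38 in the submitters' processing notes) in CLC Genomics Workbench and deposited TPM for 36333 genes. The deposited TPM carry no read counts, and low values were not multiples of one step, so that depth is unknown. A second deposited table holds the same values rounded. The third holds the authors' p-values and F values and was not used. Groups followed the treatment labels, and no mouse was left out or pooled.

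The 17267 genes averaging 0.5 TPM or more were fitted in limma 3.58.1 under R 4.3.3 on log2(TPM + 1), with one mean per group, all 24 libraries and a variance trend. Relations between genes used 100000 permutations of mice within groups (Python 3.11.15). Both steps were tested on simulated data. P-values measure the spread between mice.

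The members and lists were chosen with earlier results of these data known. Named were the 8 members, for H19, Igf2 and Dlk1 the 5 genes with the highest correlation, and from the other imprinted genes, the neighbours on chromosome 7 and the IGF genes up to 3 called genes of largest difference in each direction of a comparison, not all of which are printed, with the first 3 genes of marker lists. Igf2os, Mir675, Mir483 and Mir335 were added after their values were seen. Alternatives were another pseudocount, other filters, median-ratio rescaling, only the compared groups, the rounded table, the study's criteria and leaving out each mouse.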

Additional observations from a re-analysis of the deposited data

Results flagged for a closer look

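In 40 groups of member values, 2 mice stood apart by Dixon's test at the 95% level, about the number that chance gives at 1 in 20. Peg3 was 131.1 TPM in PLX3397 mouse J02, below 147.8 to 150.8 TPM in the other 4 mice of that group. Plagl1 was 16.12 TPM in vehicle mouse J01B, above 15.47 to 15.65 TPM in the others, a gap of under 1 TPM in a very tight group. Limma called 0 of 17267 genes for an interaction of PLX3397 and Anakinra (1395 at an unadjusted p below 0.05). This contrast uses the drug and vehicle values that led to the choice of H19, so that nothing is read from it for the members.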

How the results depend on the processing

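Of 548 alternative values for counts of members, other imprinted genes and related pairs, 521 stayed within 1.5 times the value reported. By the study's criteria 1 member (H19) was called in each comparison with sham, against 3 to 5 members, in each comparison with vehicle 1, and in PLX3397+Anakinra minus Anakinra 0. For other imprinted genes, PLX3397+Anakinra minus Anakinra called 7, but 2 after median-ratio rescaling and 2 to 8 when single mice were left out; PLX3397 minus Anakinra called 1, but 0 after rescaling or with only the compared groups, and 0 to 2 without single mice. Leaving out single mice moved members called in Anakinra minus sham from 5 to between 3 and 5, in PLX3397+Anakinra minus Anakinra to between 0 and 1, and in Anakinra minus vehicle to between 0 and 1. Related pairs of members numbered 10, between 4 and 10 without single mice, and 7 in the 20 TBI mice only. The cause of these changes was not tested. None of 753 log2 differences of called members reversed, and 17 lost the call.

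Vehicle and PLX3397 mice share the animal numbers 01, 19 and 20, whose deviations correlated with 0.173, -0.134 and -0.0656. These values cannot tell whether mice of one number shared a cage or litter. Vehicle mouse J17B and combination mouse J17 also share a number, and they were not compared. With the replicate block, 3 members were called in PLX3397 minus vehicle, as without it. Rescaling moved the median by at most 0.03 on the log2 scale in any comparison. Unknown depth limits what can be said of H19 in sham mice, all below 1 TPM.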
